A study of Mus musculus with 8 samples.

Results

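The transcripts described here are those encoded by the mitochondrial genome itself, in RNA from whole mouse testis. They were chosen by name, as every row of the deposited table whose gene symbol begins with mt-, which gave 37 of the 57690 rows. The 37 rows hold 13 protein genes, 2 rRNA genes and 22 tRNA genes, and all 37 lie on chromosome M in the GENCODE M21 annotation of mm10, with the same gene lengths as in the table. The libraries came from C57BL/6 males aged 8 weeks. In the treated group, called anti-PD-L1 here, the mice had 2 intraperitoneal injections of 200 µg of an antibody against PD-L1, the protein that binds the inhibitory receptor PD-1 on T cells. In the control group, called IgG, they had 2 injections of 200 µg of an IgG2b isotype antibody. No other agent or allele is named in the labels, testes were collected 7 days later, and there were 4 libraries in each group. Whether the libraries were made from different animals is not stated in the labels. The p-values thus reflect only how these samples vary, and that variation may be technical. Germ cell transcripts marked the tissue as labelled: 6 elongating spermatid genes (Prm1, Prm2, Tnp1, Tnp2, Odf1 and Oaz3) summed to between 52447 and 70013 TPM in the 8 libraries.

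Mitochondria keep a small circular genome that is read from both strands as long precursor RNAs. Most protein and rRNA genes are flanked by tRNA genes, and cutting the tRNAs out of the precursor releases the other RNAs, which then mostly receive short poly(A) tails. The proteins are all subunits of the respiratory chain and ATP synthase, where they assemble with many subunits encoded in the nucleus, and the rRNAs and tRNAs serve the organelle's own ribosomes. In the testis, mitochondria carry steroid synthesis in Leydig cells, support meiotic and spermatid metabolism, and are wound into the midpiece of the sperm tail. Pieces of mitochondrial DNA have also been copied into the nuclear chromosomes during evolution, and such nuclear copies can share reads with the genes they came from.

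The sequences are shown before the values because 7 of the 13 protein genes have a pseudogene row of identical or nearly identical sequence, all in a single block of mouse chromosome 1. The 7 unprocessed pseudogenes lie on the minus strand of mm10 between 24611535 and 24616197, a span of 4663 bases, in the same order as the mitochondrial genes from mt-Co1 to mt-Nd4. Compared as annotated transcripts, mt-Co2 matched Gm28661 (1: 24614885 to 24615565) over 681 of 684 bases with 0 mismatches. The match of mt-Atp6 with Gm10925 (1: 24613974 to 24614651) covered 678 of 681 bases, also with 0 mismatches. For mt-Co3 and Gm28437 (1: 24613189 to 24613971) it covered 783 of 784 bases, and for mt-Nd4l and Gm10222 (1: 24612407 to 24612700) 294 of 297 bases, each with 0 mismatches. The pair of mt-Nd3 and Gm28438 (1: 24612775 to 24613119) shared 345 of 348 bases with 1 mismatch. The remaining copies were partial. Gm29216 (1: 24615706 to 24616197) matched the last 483 of the 1545 bases of mt-Co1 with 1 mismatch, and Gm28439 (1: 24611535 to 24612410) the first 876 of the 1378 bases of mt-Nd4 with 0 mismatches. Counted over all annotated transcripts at 95% identity or more and at least 100 bases, 9 members had a match. The further matches on chromosomes 2 and 13 (Gm13339, Gm13340, Gm13341 and Gm4076) had group means of at most 0.1275 TPM.

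The differences between these pairs are few enough to print, 5′ to 3′ from the GENCODE M21 transcripts. The start of mt-Nd3 (chrM:9459-9491, plus strand) and of Gm28438 (chr1:24613087-24613119, minus strand) shows the only mismatch of that pair, T3C counted from the first base of mt-Nd3 and set in capitals.
mt-Nd3: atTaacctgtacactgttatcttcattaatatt
Gm28438: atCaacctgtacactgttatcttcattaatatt
In mt-Co1 (chrM:6390-6423, plus strand) and Gm29216 (chr1:24616155-24616188, minus strand) the only mismatch is A1066T, counted from the first base of mt-Co1, again in capitals.
mt-Co1: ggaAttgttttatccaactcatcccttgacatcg
Gm29216: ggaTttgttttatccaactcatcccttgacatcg
The ends of mt-Co2 (chrM:7652-7696, plus strand) and Gm28661 (chr1:24614885-24614926, minus strand) stand for the 4 full-length pairs without a mismatch. The pair of mt-Co3 differs in that only the last base of the gene, a T, lies outside the match. In the pair shown the annotated pseudogene stops before the stop codon, in capitals, and the rest is the same letter for letter.
mt-Co2: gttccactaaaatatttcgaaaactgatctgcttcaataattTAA
Gm28661: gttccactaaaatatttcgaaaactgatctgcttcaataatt

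Between mt-Co2 and mt-Atp6 the mitochondrial genome holds mt-Tk and mt-Atp8, and the chromosome 1 block keeps that spacing: the starts of mt-Co2 and mt-Atp6 are 914 bases apart, and so are those of Gm28661 and Gm10925. The next steps along the block are 680, 852 and 290 bases on both chromosomes, except that the starts of mt-Nd3 and mt-Nd4l are 418 bases apart and those of their copies 419. GENCODE M21 annotates 0 genes in the 233 bases between those pseudogenes (1: 24614652 to 24614884). The table therefore has no row in that stretch for mt-Atp8 to be compared with, and whether reads of mt-Atp8 also match that stretch was not tested. Within the mitochondrial genome mt-Atp8 shares its 3′ end: its 204 bases (chrM:7766-7969, plus strand) overlap the first 43 bases of mt-Atp6, shown in capitals. Those 43 bases also begin Gm10925, whose match with mt-Atp6 starts at base 1 and has 0 mismatches. ATP8 and ATP6 are known to be translated from a single RNA.
mt-Atp8: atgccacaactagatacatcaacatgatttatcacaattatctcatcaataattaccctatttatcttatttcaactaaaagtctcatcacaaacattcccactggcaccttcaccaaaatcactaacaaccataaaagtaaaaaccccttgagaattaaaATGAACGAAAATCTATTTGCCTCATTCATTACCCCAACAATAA
Other annotated overlaps between members were short, the longest being 14 bases between mt-Nd5 and mt-Nd6, which lie on opposite strands, and 7 bases between mt-Nd4l and mt-Nd4. The strand setting of the counting is not given in the sources used here, so reads of mt-Nd6 and of RNA antisense to it cannot be told apart.

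Averaged across the 8 libraries, 15 of the 37 members reached 1 TPM and were tested: the 13 protein genes and the 2 rRNA genes. TPM, a transcript abundance, corrects for gene length and sets every library to the same sum. Levels of different genes are set side by side on this scale, while read depth is unknown. How well the length correction holds for short genes such as mt-Atp8 was not tested. Whether the library preparation kept rRNA and the other RNAs alike was not tested either. The 22 tRNA genes, 59 to 75 bases long, were listed at 0 in all 8 libraries, 14 on the plus strand and 8 on the minus strand. Rows of that size were rarely above 0 in this table: of 1027 rows of up to 75 bases, 9 (0.876%) had a value above 0 in any library, against 65.8% of the 56663 longer rows. A row at 0 here is a property of the table, and no statement is made about the tRNAs themselves.

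Mitochondrial transcripts did not differ between the groups beyond the spread of the libraries. Of the 15 tested members 13 had a higher log2 value after anti-PD-L1 and 2 a lower one, with a median log2 difference of 0.084, against a median of 0.026 over the 20343 genes tested, of which 58.3% were higher. The higher count includes mt-Atp8, which turned lower with TMM rescaling. None passed: 0 of 15 had a Benjamini-Hochberg adjusted p under 0.05 in limma, where the share over all genes was 0%, and the adjusted p of all 15 was 0.999. At an unadjusted p under 0.05 the count was 0 of 15, against 5.23% of all genes, and the smallest unadjusted p was 0.14, for mt-Atp6. The groups overlapped for all 15 members, where 2.99% of all genes had groups that did not overlap. Differences of single rows are given as log2(TPM + 1), so those of low values are understated. Those of sums, ratios and members counted with a copy are of log2 values without the added 1. In bulk RNA fewer cells of a type and less RNA per cell cannot be told apart.

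**Figure D1:**
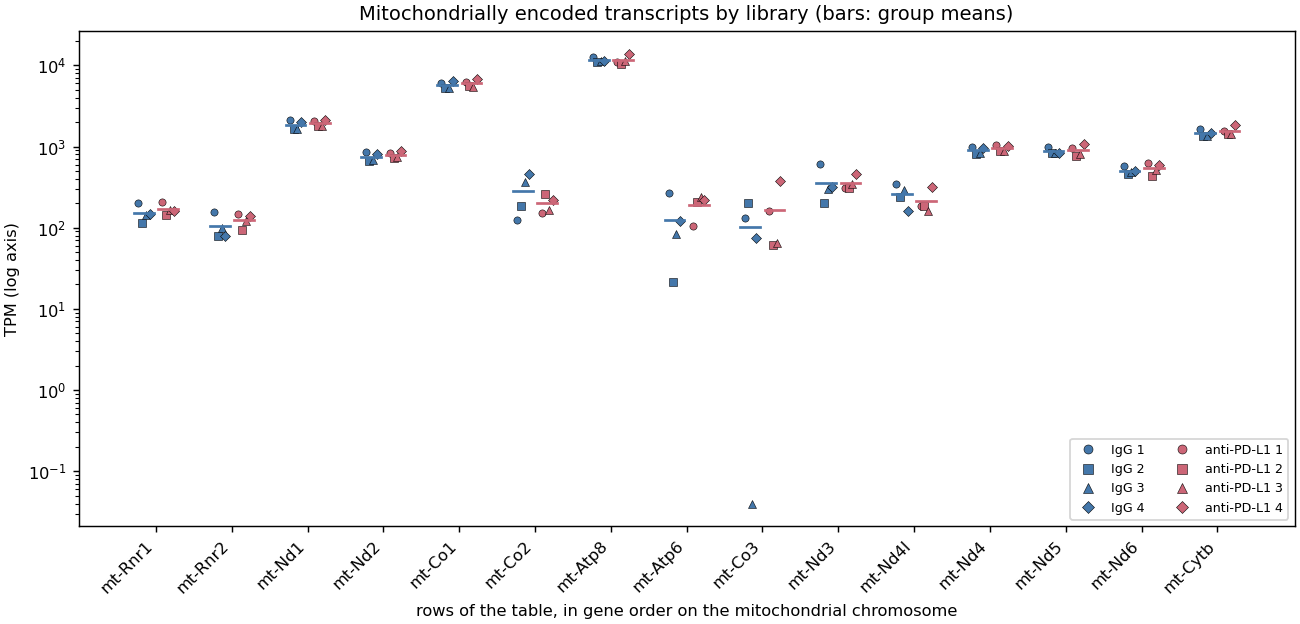
TPM of the 15 tested members (log axis) in gene order on the mitochondrial chromosome, IgG libraries in blue and anti-PD-L1 libraries in red, with a marker shape for each replicate number and bars for group means. Points lie close together for 8 protein genes and spread for mt-Co2, mt-Atp6, mt-Co3, mt-Nd3 and mt-Nd4l, with mt-Co3 at 0.04 TPM in IgG replicate 3.

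Complex I, the NADH dehydrogenase that begins the chain, takes 7 of its subunits from the mitochondrial genome. The most abundant row among them was mt-Nd1, which encodes a membrane subunit near the ubiquinone site. It was at 2117, 1668, 1638 and 1990.1 TPM in IgG replicates 1 to 4 and at 2060, 1792, 1809 and 2157 TPM in anti-PD-L1 replicates 1 to 4. IgG replicates 1 and 4 lay within the range of the treated libraries, and the groups overlapped. Its log2 difference was 0.081 (SE 0.099, 95% confidence interval -0.14 to 0.30). The proton-pumping subunit genes mt-Nd2, mt-Nd4 and mt-Nd5 had levels of 755 ± 93.7, 898 ± 94.4 and 873 ± 76 TPM in IgG libraries and 797 ± 71.7, 957 ± 84.2 and 906 ± 146 TPM in treated libraries (SD, n = 4). Their log2 differences were 0.083, 0.094 and 0.043, each smaller than its standard error except that of mt-Nd4 (SE 0.087).

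The last complex I gene on the circle, mt-Nd6, is the only protein gene of the minus strand. The IgG libraries held 578, 463, 487 and 498 TPM of it and the anti-PD-L1 libraries 619, 436, 519 and 599 TPM. Its highest and its lowest library were thus both treated ones. The log2 difference was 0.093 (SE 0.11). To compare the strands, mt-Nd6 was divided by the summed rows of the other 12 protein genes, without chromosome 1 copies. This gave a ratio of 0.0209 ± 0.000628 in IgG libraries and 0.0218 ± 0.00251 in anti-PD-L1 libraries (SD, n = 4). That ratio differed by 0.053 on the log2 scale (two-sided exact permutation p = 0.657 over 70 assignments), and by -0.018 without anti-PD-L1 replicate 1, which had the highest ratio, 0.0251.

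Cytochrome b of complex III is encoded by mt-Cytb, which was at 1660 TPM in IgG replicate 1 and at 1343, 1354 and 1472 TPM in the other IgG libraries. In the anti-PD-L1 libraries it was at 1546, 1429, 1446 and 1844 TPM. IgG replicate 1 lay above 3 of the 4 treated libraries, and the log2 difference was 0.10 (SE 0.096).

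In complex IV, cytochrome c oxidase, mt-Co1 encodes the catalytic core subunit. It ranked 7 among all rows by mean TPM. The IgG libraries held 6061, 5265, 5306 and 6379 TPM and the anti-PD-L1 libraries 6287, 5557, 5393 and 6788 TPM. High and low libraries occurred in both groups, and the log2 difference was 0.061 (SE 0.091).

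ATP synthase, complex V, has mt-Atp8 as its most abundant mitochondrial row, with 12795, 10881, 11213 and 11259 TPM in the IgG libraries and 11026, 10400.1, 11392 and 13940 TPM in the anti-PD-L1 libraries. The highest and the lowest value both fell in the treated group. The log2 difference was 0.013 (SE 0.092) and turned to -0.018 with TMM rescaling. This row ranked 5 in the table and made up between 43% and 47.5% of the summed TPM of all members in each library. At 204 bases it is also the shortest of the protein genes.

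The ribosomal RNAs mt-Rnr1 (12S) and mt-Rnr2 (16S), which form the cores of the mitochondrial ribosome, were below every protein gene in TPM once nuclear copies were counted in. The part of the library preparation in this was not tested. The values of mt-Rnr1 were 204, 116, 143 and 149 TPM in IgG libraries and 205, 145, 167 and 162 TPM in anti-PD-L1 libraries. The log2 difference was 0.16 (SE 0.17). For mt-Rnr2 they were 156, 79.2, 99.8 and 80.2 TPM and 146, 95.1, 122 and 138 TPM, a log2 difference of 0.31 (SE 0.22). IgG replicate 1 and anti-PD-L1 replicate 1 had the highest level of each rRNA within their groups. Leaving out single libraries moved the difference of mt-Rnr1 between 0.041 (without IgG replicate 2) and 0.31 (without IgG replicate 1). That of mt-Rnr2 lay between 0.20 and 0.52 in the same fits, and no such fit called either rRNA. The ratio of mt-Rnr2 to mt-Rnr1 was 0.670 ± 0.0946 and 0.739 ± 0.0819 (SD, n = 4; two-sided exact permutation p = 0.371). It differed by 0.15 on the log2 scale, and by 0.045 without IgG replicate 4.

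The 5 protein genes with a copy of full or nearly full length had unsteady rows. From library to library they varied by 2.15 to 9385 times from the lowest to the highest, while the other 8 varied by 1.29 to 1.42 times. The widest range belonged to mt-Co3, a core subunit gene of cytochrome c oxidase. It was at 130, 199, 0.04 and 73.9 TPM in IgG libraries and at 159, 61.5, 65 and 375 TPM in anti-PD-L1 libraries. A single IgG library was thus near 0 while its copy row Gm28437 stood at 4732 TPM in the same library. The row of mt-Atp6, the proton channel subunit of ATP synthase, was at 264, 21.6, 84.6 and 122 TPM and at 106, 208, 240 and 217 TPM. Of the treated libraries 3 lay above 3 of the IgG libraries, and IgG replicate 1 lay above all of them.

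For mt-Co2, which carries the copper site that accepts electrons from cytochrome c, the rows were at 126, 188, 361 and 465 TPM in IgG libraries and at 153, 257, 167 and 222 TPM in anti-PD-L1 libraries. IgG replicates 3 and 4 were the highest, and IgG replicate 1 the lowest of the 8. The complex I genes mt-Nd3 and mt-Nd4l ranged from 200 to 607 TPM and from 159 to 342 TPM, with IgG replicate 1 highest for each. The log2 differences of these 5 rows, -0.36 for mt-Co2, 1.06 for mt-Atp6, 1.73 for mt-Co3, 0.084 for mt-Nd3 and -0.28 for mt-Nd4l, had standard errors from 0.27 to 1.53. Single libraries set the size of the widest: the difference of mt-Co3 was 0.0031 without IgG replicate 3, that of mt-Atp6 0.40 without IgG replicate 2, and that of mt-Co2 -0.065 without IgG replicate 4. For mt-Nd3 it was -0.15 without IgG replicate 2. Those of the other 8 protein genes had standard errors from 0.087 to 0.11.

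For mt-Co2, mt-Atp6, mt-Co3, mt-Nd3 and mt-Nd4l, most of the signal of the pair stood on the chromosome 1 copy row, while for mt-Co1 and mt-Nd4 most stood on the mitochondrial row. In IgG and anti-PD-L1 libraries Gm28661, the copy of mt-Co2, was at 5508 ± 659 and 5933 ± 717 TPM, and Gm28437, the copy of mt-Co3, at 5174 ± 841 and 5107 ± 510 TPM (SD, n = 4). Gm10925, the copy of mt-Atp6, was at 2973 ± 417 and 3024 ± 313 TPM, and Gm10222, the copy of mt-Nd4l, at 2374 ± 144 and 2734 ± 316 TPM. The copy of mt-Nd3, Gm28438, was at 1405 ± 249 and 1437 ± 145 TPM, and the partial copy of mt-Co1, Gm29216, at 2115 ± 415 and 2019 ± 451 TPM. Of the 6 copies tested 4 had a higher log2 value after anti-PD-L1 and 2 a lower one, and 0 passed. The lowest unadjusted p was 0.0419, for Gm10222, with a log2 difference of 0.20 (SE 0.083) and an adjusted p of 0.934 in limma with Benjamini-Hochberg adjustment. The partial copy of mt-Nd4 was the exception in level: Gm28439 was listed at 0 in all 8 libraries although its 876 bases are the same as in mt-Nd4. Weighted by length, the share of each pair that stood on the mitochondrial row ranged from 0.00085% to 6.03% for mt-Co3, from 1.98% to 7.38% for mt-Co2 and from 0.802% to 7.94% for mt-Atp6. It ranged from 5.90% to 12.6% for mt-Nd4l, from 13.2% to 25.8% for mt-Nd3 and from 87.7% to 92.4% for mt-Co1. Reads from an identical stretch do not show which locus they came from. The shares of mt-Co2, mt-Atp6, mt-Co3, mt-Nd3 and mt-Nd4l thus show how the authors' quantification divided those pairs. The copies of mt-Co1 and mt-Nd4 match only 483 of 1545 and 876 of 1378 bases. The mitochondrial rows of these genes therefore also hold reads from outside the match, and their shares are not comparable with those of the other pairs. How reads of the matching stretch of mt-Co1 were divided was not tested.

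**Figure D2:**
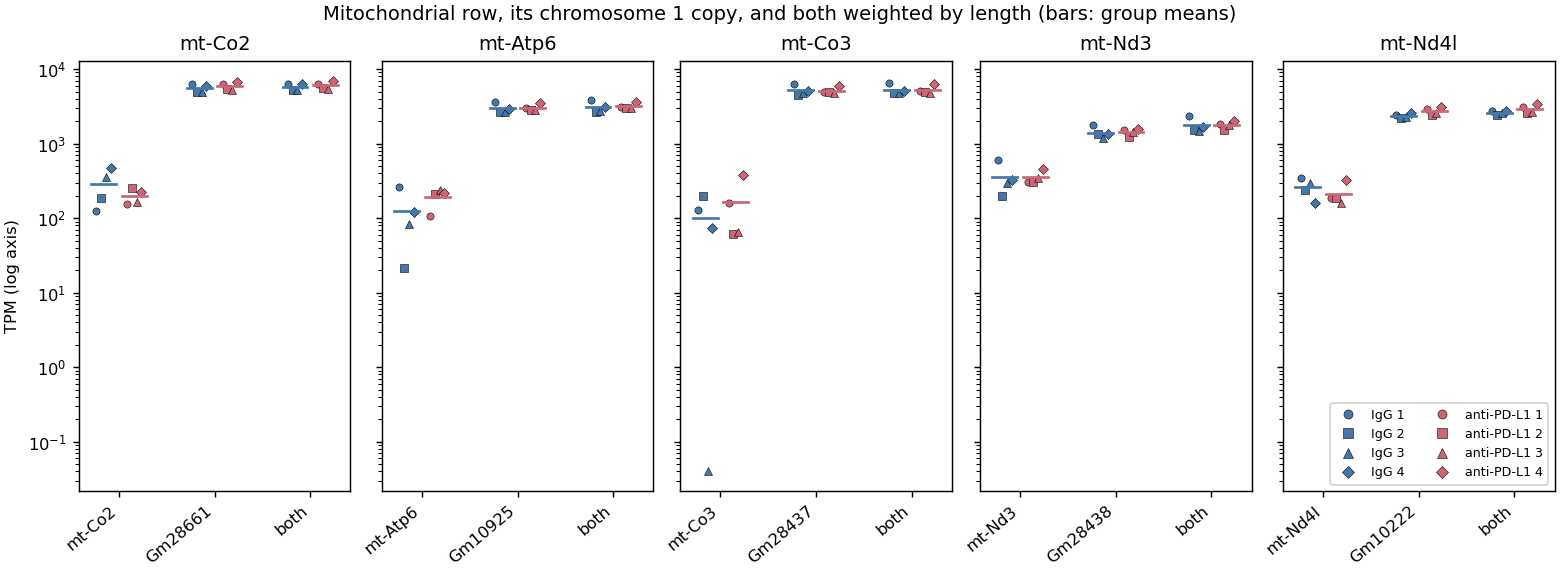
TPM (log axis) of 5 mitochondrial rows, of their chromosome 1 copy rows and of both together weighted by length, by library, with bars for group means. The mitochondrial rows spread widely, from 0.04 to 375 TPM for mt-Co3, while the combined values stay within 1.36 to 1.60 times from the lowest to the highest library.

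Each of these genes was also counted with its copy, weighted by the table's gene lengths. This way of counting was chosen after the data were seen. On it mt-Co3 was at 6517, 4722, 4726 and 5109 TPM in IgG libraries and at 5079, 4983, 4775 and 6224 TPM in anti-PD-L1 libraries. The log2 difference was 0.0045, which became negative with TMM rescaling and quantile normalization. The library of IgG replicate 3, near 0 for the row alone, was now close to replicate 2. The 5 genes with their copies varied by 1.36 to 1.60 times between libraries. Their log2 differences were 0.082 for mt-Co2, 0.065 for mt-Atp6, 0.0045 for mt-Co3, 0.043 for mt-Nd3 and 0.15 for mt-Nd4l, and the lower values of the rows of mt-Co2 and mt-Nd4l alone were thus not seen with the copies. The smallest two-sided exact permutation p among them was 0.257, for mt-Nd4l. The ratio of mt-Atp8 to mt-Atp6 ranged from 47.6 to 504 on the rows alone and from 3.35 to 4.06 with the copy.

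With copies counted in, the order of the levels ran from mt-Atp8 (11613 ± 1165 TPM, SD over 8 libraries) to mt-Co1 (6538 ± 619), mt-Co2 (5938 ± 656) and mt-Co3 (5267 ± 702). Below these came mt-Atp6 (3143 ± 400), mt-Nd4l (2764 ± 304), mt-Nd1 (1904 ± 203), mt-Nd3 (1764 ± 296) and mt-Cytb (1512 ± 169 TPM). The lowest protein genes were mt-Nd4 (928 ± 88.6), mt-Nd5 (890 ± 109), mt-Nd2 (776 ± 80.5) and mt-Nd6 (525 ± 66.7 TPM), followed by mt-Rnr1 (161 ± 30.7) and mt-Rnr2 (115 ± 30.1 TPM). Neighbours kept their order in all 8 libraries except mt-Co2 over mt-Co3 and mt-Nd1 over mt-Nd3, in 7 of 8 each, and mt-Nd4 over mt-Nd5, in 5 of 8. The 3 cytochrome oxidase genes thus stood together near the top, and 4 of the 7 complex I genes at the bottom of the protein genes. Genes that overlap and share an RNA did not stand at equal levels in TPM: mt-Atp8 was above mt-Atp6, and mt-Nd4l above mt-Nd4, in 8 of 8 libraries. The order of mt-Nd4l and mt-Nd4 rested on counting the copy. On the rows alone mt-Nd4l, at 159 to 342 TPM, lay below mt-Nd4, at 806 to 1037 TPM. How far the orders of these pairs rest on the length correction of the shorter genes was not tested.

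Libraries deviated in the same direction for most members, whatever their group. With copies counted in, each library was set against the mean log2 value of the gene over the 8 libraries. Anti-PD-L1 replicate 4 lay above this mean for 15 of 15 members, IgG replicate 1 for 14 and anti-PD-L1 replicate 1 for 13. IgG replicates 2 and 3 and anti-PD-L1 replicate 2 lay above it for 0 of 15, IgG replicate 4 for 5 and anti-PD-L1 replicate 3 for 3. The median deviations ran from -0.18 on the log2 scale in IgG replicate 2 to 0.23 in anti-PD-L1 replicate 4. In the 8 protein genes read from rows without a full-length copy, the coefficient of variation within a group had a median of 9.98% in IgG and 11.5% in anti-PD-L1 libraries. Over all 1931 rows with a mean of at least 100 TPM these medians were 6.19% and 5.72%. IgG replicate 1 was also the highest library in the erythrocyte and adipocyte marker lists, but in none of the other marker lists. The 5 erythrocyte genes summed to 209 TPM there and to 159 and 109 TPM in anti-PD-L1 replicates 3 and 1. In the remaining libraries they summed to between 34.0 and 59.9 TPM. The 6 adipocyte genes summed to 54.5 TPM in IgG replicate 1 and to between 9.12 and 22.5 TPM in the other 7 libraries. In anti-PD-L1 replicate 4 the same sums were 59.9 and 9.12 TPM. Between the groups, 6 of 6 elongating spermatid genes were lower after anti-PD-L1, with sums from 55201 to 70013 TPM in IgG and from 52447 to 59989 TPM in anti-PD-L1 libraries. All 6 spermatocyte genes were higher, with sums from 584 to 708 and from 623 to 781 TPM, and so were all 5 erythrocyte genes, with sums from 34.0 to 209 and from 50.5 to 159 TPM. All 4 peritubular myoid genes were lower, with sums from 88.0 to 99.2 and from 81.0 to 93.9 TPM. The 4 of 6 adipocyte genes that could be tested were lower, with sums from 12.5 to 54.5 and from 9.12 to 11.5 TPM. Further lists were mixed: 4 of 5 round spermatid, 4 of 6 Sertoli and 4 of 6 spermatogonial genes were higher. So were 1 of 5 Leydig, 3 of 5 tested macrophage and 1 of 4 endothelial genes, while 58.3% of all tested genes were higher. The 5 T cell genes summed to at most 2.99 TPM in any library. The part of these cells in the mitochondrial levels was not tested.

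**Figure D3:**
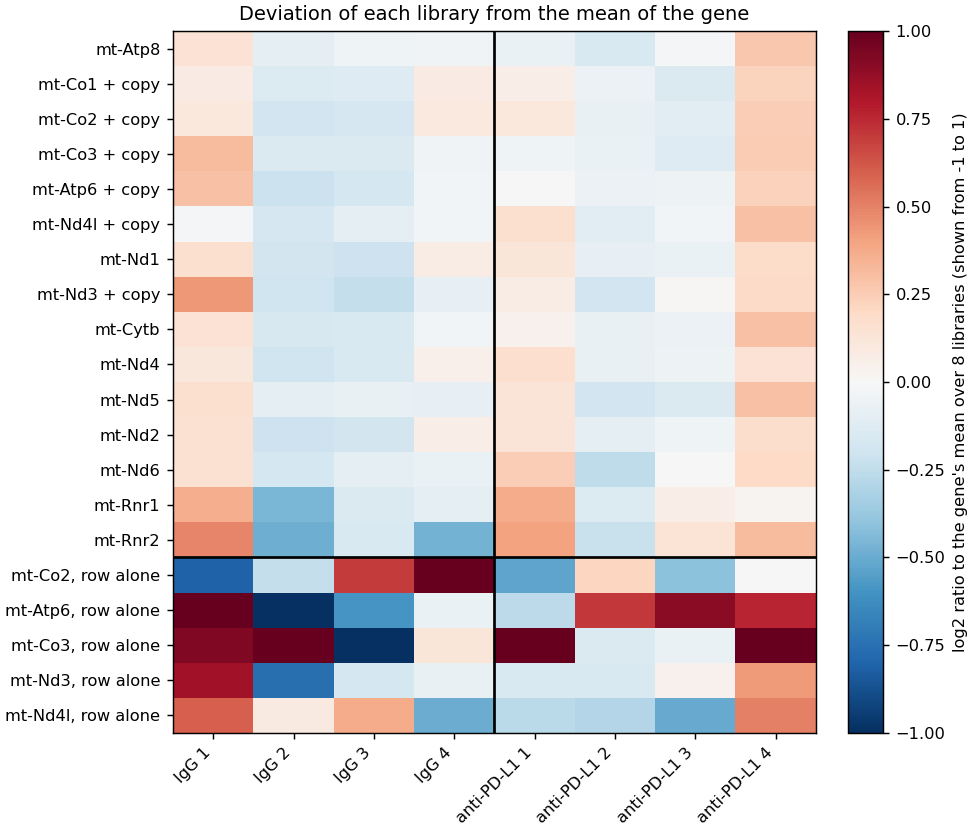
Log2 value of each library minus the mean log2 value of the gene over the 8 libraries. Members are counted with copies where they have one (top), and the 5 rows alone are shown after adding 1 TPM (bottom). The colour scale is limited to -1 and 1. Columns are mostly alike down the top block, with anti-PD-L1 replicate 4 above the mean for 15 of 15 members but IgG replicate 4 for 5, and unlike in the bottom block.

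Summed over the 13 protein genes, the mitochondrial rows held 27527, 22775, 23387 and 25341 TPM in IgG libraries and 25297, 23007, 23979 and 29896 TPM in anti-PD-L1 libraries. The groups overlapped, with the lowest value in IgG replicate 2 and the highest in anti-PD-L1 replicate 4, and the log2 difference was 0.042 (two-sided exact permutation p = 0.686). With the copies the sums were 42785 ± 4369 and 44336 ± 4998 TPM (SD, n = 4), a difference of 0.050 (two-sided exact permutation p = 0.629). The direction rested on anti-PD-L1 replicate 4, without which these differences were -0.036 and -0.023. All members together made up 2.50% ± 0.221 of the TPM of the IgG libraries and 2.58% ± 0.307 of that of the anti-PD-L1 libraries (SD, n = 4). The 7 copy rows added 1.95% ± 0.243 and 2.03% ± 0.220. By complex the sums of the rows, without copies, differed by 0.059 for complex I, 0.10 for complex III, 0.051 for complex IV and 0.022 for complex V. The last turned to -0.0090 with TMM rescaling. In all, 21 sums and ratios were tested, 0 had a Benjamini-Hochberg adjusted p under 0.05, and the smallest exact permutation p was 0.257 where 70 assignments allow 0.0286. A single quantity at that lowest possible value would not pass the adjustment over all 21, so the count of 0 says little.

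**Figure D4:**
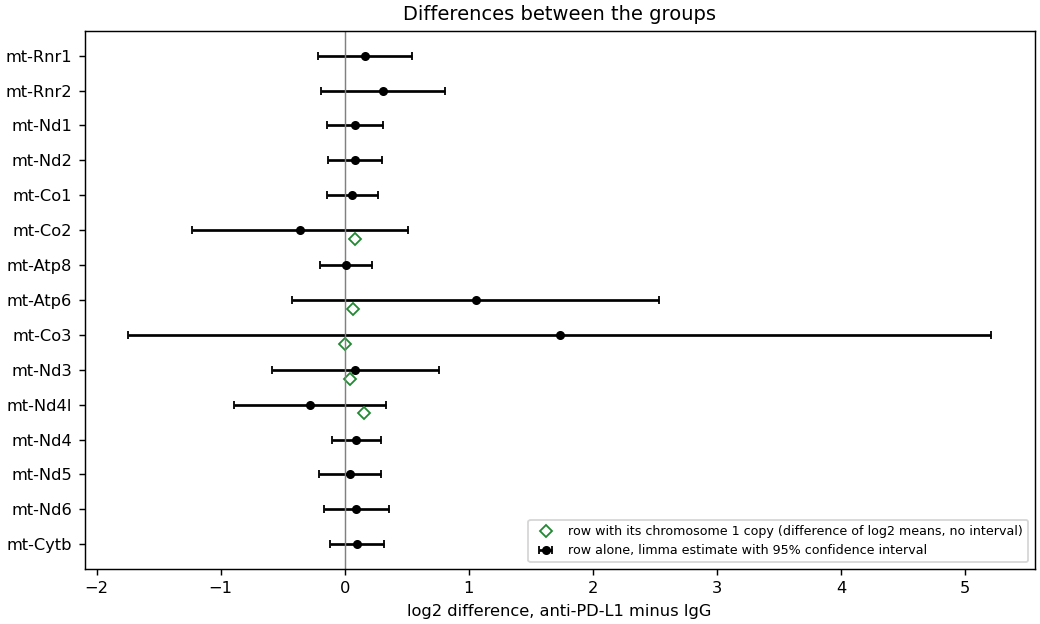
Log2 difference of each tested member between anti-PD-L1 and IgG (points, after adding 1 TPM, with 95% confidence intervals from limma), and of 5 members counted with their chromosome 1 copy (open diamonds, without the added 1 and without interval). All 15 intervals include 0; those of the 8 protein genes without a full-length copy lie between -0.21 and 0.35, and the 5 diamonds between 0.0045 and 0.15.

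The nuclear genome encodes the partners of these subunits. The 74 listed nuclear genes of complexes I, III, IV and V summed to 14997 ± 651 TPM in IgG libraries and to 14829 ± 541 TPM in treated libraries (SD, n = 4), a log2 difference of -0.016. The ratio of the rows of the mitochondrial protein genes to them was 1.65 ± 0.119 and 1.72 ± 0.159 (two-sided exact permutation p = 0.543). Those rows leave out the chromosome 1 copies, with which the mitochondrial sums were 42785 and 44336 TPM. Of 36 nuclear complex I genes 30 had lower values after anti-PD-L1 and 6 higher ones, while 58.3% of all tested genes were higher. The median log2 difference was -0.035, against 0.026 over all genes tested, and 0 passed in limma. Its members with the smallest unadjusted p were Ndufa3, with 54.8 ± 5.92 and 43.6 ± 5.03 TPM and no overlap between the groups, and Ndufa13, with 115 ± 7.77 and 100 ± 6.36 TPM. In complex III 4 of 9 genes were higher, with a median of -0.024, and Uqcrfs1, the Rieske iron-sulfur subunit, and Cyc1, cytochrome c1, differed by 0.13 and 0.12. In complex IV 7 of 13 tested genes were higher, with a median of 0.0050. Cox5a was at 265, 221, 254 and 311 TPM in IgG libraries and at 342, 366, 368 and 345 TPM in anti-PD-L1 libraries, all treated libraries above all IgG libraries. Its log2 difference was 0.44 (SE 0.093), with an adjusted p of 0.573 in limma with Benjamini-Hochberg adjustment. Cox7b was at 66.9 and 25.7 TPM in anti-PD-L1 replicates 1 and 2 and between 8.37 and 11.1 TPM in the other 6 libraries. In complex V 8 of 15 genes were higher, with a median of 0.025, and Atp5e and Atp5j differed by -0.17 and 0.11. Complex II has no mitochondrially encoded subunit, and of its 4 genes 3 were higher, Sdha by 0.27 and Sdhd by 0.086. Groups did not overlap for 1 gene each of complexes I, II, IV and V and for 0 of complex III, against 2.99% of all genes.

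**Figure D5:**
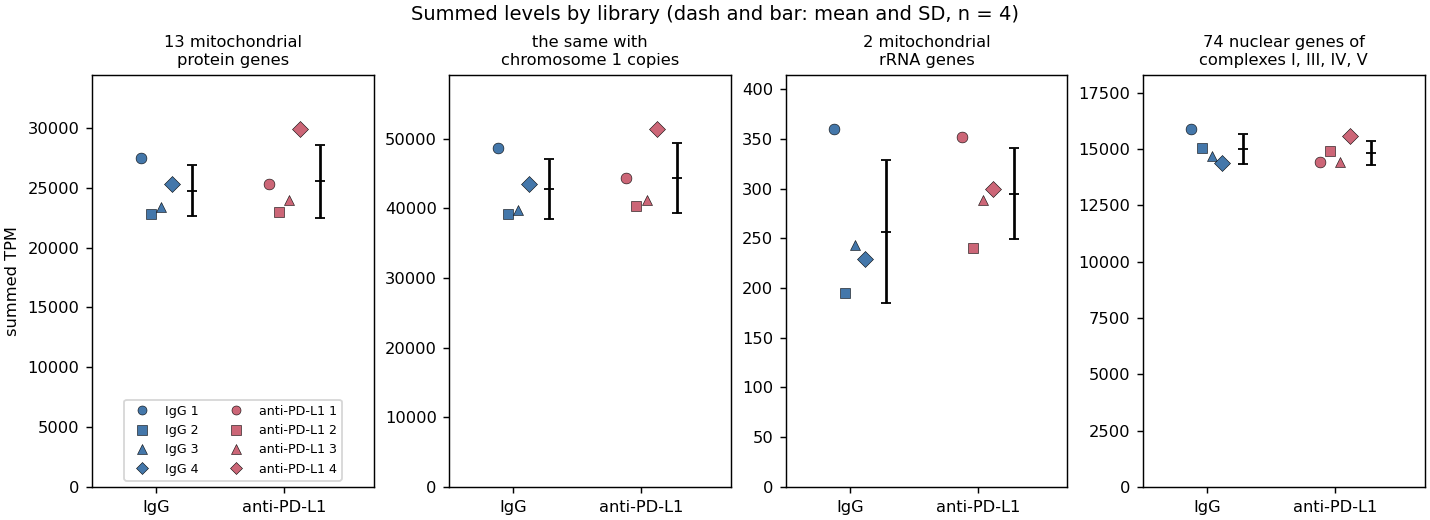
Summed TPM by library of the 13 mitochondrial protein genes, of the same with chromosome 1 copies, of the 2 mitochondrial rRNA genes and of 74 nuclear genes of complexes I, III, IV and V, with the mean and SD of 4 libraries beside the points. Axes start at 0, and the groups overlap in each panel: the protein genes range from 22775 to 29896 TPM and the nuclear genes from 14357 to 15877 TPM.

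Genes that copy, read and process mitochondrial DNA and RNA were described from lists written with earlier results of these data known. Among 9 genes of mitochondrial transcription the median log2 difference was 0.027, and 5 of them had higher values. Tfam, which packages mitochondrial DNA and activates its promoters, was at 363, 362, 389 and 350 TPM in IgG libraries and at 349, 301, 339 and 296 TPM in anti-PD-L1 libraries. The groups did not overlap but nearly touched at 350 and 349 TPM, and the log2 difference was -0.19 (SE 0.064, adjusted p = 0.81 in limma with Benjamini-Hochberg adjustment). Of the 9 genes 1 had groups that did not overlap, against 2.99% of all genes. Tfb2m, the partner of Tfam at the promoter, differed by 0.14. Of 9 replication genes 4 were higher, with a median of -0.0061, and the topoisomerase Top1mt and the polymerase subunit Polg2 differed by -0.13 and 0.23. Among 20 genes of RNA processing and decay 12 were higher, with a median of 0.012. Slirp, which stabilizes mitochondrial mRNAs together with LRPPRC, differed by -0.21, and Pnpt1, a polynucleotide phosphorylase, by 0.20.

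The mitochondrial ribosome takes its proteins from the nucleus, and 34 of their 78 genes had higher and 44 lower values (median log2 difference -0.024). Mrps18b was at 58.8 ± 1.52 and 51.6 ± 2.90 TPM without overlap between the groups (log2 difference -0.19, SE 0.055), and Mrpl3 differed by 0.32 (SE 0.10). The groups did not overlap for 1 of the 78 genes, against 2.99% of all genes. Of 11 translation factors 5 were higher, with a median of -0.0064, and the initiation factors Mtif3 and Mtif2 differed by -0.23 and 0.10. Of 17 mitochondrial aminoacyl-tRNA synthetases 9 were higher, with a median of 0.028, and Fars2 and Rars2 differed by -0.13 and 0.14. Germ cell isoforms of mitochondrial proteins had a median of 0.0069 over 10 genes, 6 of them higher. Gk2 differed by 0.067 and Spata19 by -0.081. Of 10 tested genes of the mitochondrial stress response 5 were higher, with a median of -0.014, Hspa9, the mitochondrial Hsp70, by 0.13, and Atf5 differed by -0.19. Across all lists named here 0 genes had an adjusted p under 0.05 in limma with Benjamini-Hochberg adjustment, and the smallest was 0.573, that of Cox5a.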

How the data were processed

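Bulk RNA from testis was measured in 8 libraries, 4 per group, grouped and numbered by their titles. TRIzol extraction, DNase I and an Illumina TruSeq RNA kit were used, per the labels' protocols. The authors deposited TPM per gene with a gene length column; per the submitters' processing notes the tools included RSEM, StringTie, HISAT2 and CASAVA 1.8, and the build was mm10, and the sources used here do not say how reads matching several loci were handled. Since TPM keeps no depth, no counting intervals are given.

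Rows beginning with mt- were taken, and log2(TPM + 1) of rows with a mean of at least 1 TPM (20343 of 57690) was fitted with limma 3.58.1 in R 4.3.3, with an intensity trend and no covariates, and Benjamini-Hochberg adjustment at 0.05 over all rows. The script was tested on simulated data. Sums and ratios were compared by two-sided exact permutation of log2 values. GENCODE M21 transcripts were compared with BLAST 2.17.0 (word size 20). A member and its copy were combined as the sum of TPM times length, divided by the member's length. Alternatives were quantile normalization, a lower pseudocount (0.1), a stricter filter (5 TPM) or none, TMM (30% of M and 5% of A values trimmed), rescaling to the non-mitochondrial total, array quality weights, no trend, the replicate block and each library left out. Leaving out IgG replicate 4 and anti-PD-L1 replicate 1 together and combining copies were added after seeing the data. The members and lists were chosen with earlier results of these data known. All members were named, and from each list the 2 genes with the smallest unadjusted p.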

Additional observations from a re-analysis of the deposited data

Results flagged for a closer look

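The value of mt-Nd5, a proton-pumping subunit gene of complex I, was far from the others of its group in IgG replicate 1, at 987 TPM, where the nearest of the other 3 IgG libraries was at 841 TPM. It was the only such value among 84 groups of 4 libraries looked at in this way, and chance alone gives about 1 in 20. The same library had the highest values of the 8 for the rows of mt-Nd3, mt-Nd4l, mt-Atp6 and mt-Rnr2.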

How the results depend on the processing

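With 4 libraries in each group and no depth, small differences could not be resolved. Over 270 alternative fits of the members 0 had an adjusted p under 0.05 (limma, Benjamini-Hochberg), the smallest being 0.41. Of the 21 sums and ratios 0 were called with TMM rescaling, quantile normalization, rescaling to the non-mitochondrial total or a single library left out. A single quantity at the lowest possible exact p would not pass the adjustment in these settings, so these counts say little. The replicate block and 3 libraries against 3 allow exact permutation p-values no lower than 0.125 and 0.1 and so say nothing here. The 26 named list genes had 0 calls and 0 sign changes in 467 fits. They were picked for the smallest unadjusted p in these same data, which favours steady signs, so this says little about robustness. The count of called genes over the whole table, 0 as reported, was 1 with a pseudocount of 0.1, 5 with array quality weights, 8 when IgG replicate 4 was dropped along with anti-PD-L1 replicate 1, and 0 to 15 when single libraries were left out: dropping IgG replicate 4 gave 15, anti-PD-L1 replicate 4 gave 3, and anti-PD-L1 replicate 1 or IgG replicate 2 gave 1. The replicate block gave 0 called genes. Deviations of same-numbered libraries correlated at -0.11, 0.10, 0.090 and -0.20, which does not decide whether the numbers pair the samples. The highest correlation between an IgG and an anti-PD-L1 library was 0.36, for IgG replicate 4 and anti-PD-L1 replicate 1. These libraries, dropped together above, also had the highest TMM factors, 1.11 and 1.10.

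Some log2 differences changed sign, and the cause was not tested. With TMM rescaling mt-Atp8 was at -0.018, Gm10925 at -0.0015, complex V at -0.0090 and mt-Co3 with its copy at -0.026. With quantile normalization Gm10925 was at -0.027, mt-Co3 with its copy at -0.13, mt-Nd4l with its copy at -0.0071 and the ratio of mt-Atp8 to mt-Atp6 with its copy at 0.093. Array quality weights put Gm28437 at 0.061. With IgG replicate 4 dropped along with anti-PD-L1 replicate 1, mt-Co2 was at 0.051, mt-Nd5 at -0.012, Gm28438 at -0.011 and the ratio of mt-Nd6 to the other protein genes at -0.037. Counting the copy put mt-Co2 at 0.082 and mt-Nd4l at 0.15, from -0.36 and -0.28 on the row alone.

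Leaving out single libraries gave ranges of -1.5e-05 to 0.11 for mt-Co1, -0.075 to 0.066 for mt-Atp8, -0.15 to 0.38 for mt-Nd3 and -0.047 to 0.11 for mt-Nd5. For copies they were -0.038 to 0.12 (Gm10925), -0.078 to 0.095 (Gm28437), -0.20 to 0.044 (Gm29216) and -0.034 to 0.16 (Gm28438). For sums they were -0.036 to 0.094 (protein genes), -0.034 to 0.097 (all members), -0.0049 to 0.14 (complex I), -0.023 to 0.11 (complex IV), -0.065 to 0.077 (complex V) and -0.040 to 0.012 (nuclear subunits). The mt-Nd6 ratio ranged from -0.018 to 0.11. With copies the ranges were -0.020 to 0.10 (mt-Co1), -0.0016 to 0.17 (mt-Atp6), -0.079 to 0.11 (mt-Co3), -0.031 to 0.19 (mt-Nd3) and -0.023 to 0.11 (the sum of the protein genes). Members that kept their sign ranged from 0.024 to 0.15 (mt-Nd1), 0.029 to 0.15 (mt-Nd2), 0.044 to 0.15 (mt-Nd4), 0.026 to 0.19 (mt-Nd6), 0.021 to 0.17 (mt-Cytb), -0.50 to -0.13 (mt-Nd4l), -0.69 to -0.065 (mt-Co2), 0.40 to 1.58 (mt-Atp6), 0.0031 to 2.53 (mt-Co3), 0.041 to 0.31 (mt-Rnr1) and 0.20 to 0.52 (mt-Rnr2). With IgG replicate 4 dropped along with anti-PD-L1 replicate 1, mt-Rnr2 was at 0.13.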
